A study of Mus musculus with 5 samples.

Results

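The 8 genes described here encode the Aurora kinases and the proteins that place and activate them in mitosis: *Aurka*, *Tpx2*, *Bora* and *Tacc3* of the Aurora A pathway, and *Aurkb*, *Incenp*, *Birc5* and *Cdca8* of the chromosomal passenger complex. They were taken by name from the 19938 genes that the arrays measured with a probe set annotated to a single symbol, and all 8 were found, each with 1 probe set. The arrays (Affymetrix Mouse Gene 1.0 ST, 1 per line) held RNA of 5 lines of 6DT1, a highly metastatic mouse mammary carcinoma line. The *Arid4b* knockdown cohort was made of H3 and H4, which stably carry lentiviral pLKO.1 hairpins 3 and 4 against *Arid4b* and had a low ARID4B protein level (densitometry 0.19 and 0.15 of the scrambled line). The control cohort was made of H5, which carries a further hairpin against *Arid4b* that left the protein at 1.02, the line with a scrambled hairpin in the same vector, and untransduced cells (1.09). All but the untransduced cells had been selected with puromycin, and each stable line was a pool of clones, so that a line is the only replicate and a hairpin cannot be told apart from the pool that carries it. Values are log2 expression, on which a step of 1 is a doubling. The targeted gene itself, *Arid4b*, had 6.88 (H3) and 7.35 (H4), and the control lines had 8.24 (H5), 8.34 (scrambled) and 8.36 (untransduced), so that both knockdown lines lay below the controls (log2 fold change -1.20, SE 0.15, adjusted p = 0.217 from limma).

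The Aurora kinases are serine/threonine kinases of dividing cells whose mRNAs are made mainly in G2 and mitosis. Aurora A acts at centrosomes and on spindle microtubules, where TPX2 binds and activates it, BORA helps it to switch on the kinase PLK1, and TACC3 is a substrate that crosslinks microtubules of the spindle. Aurora B works in the passenger complex, in which INCENP is the scaffold and activator of the kinase, and survivin (*Birc5*) and borealin (*Cdca8*) bring the complex to the inner centromere, from which it corrects faulty kinetochore attachments before it moves to the midzone for cytokinesis.

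The promoters of members are shown because the 8 genes were lower together, and genes of G2 and mitosis are known for promoters that combine CCAAT boxes with a cell cycle homology region (CHR). The RefSeq promoter table (build GRCm38.p6, 250 bases before to 50 after the start) held 4 of the 8 members. Each is printed 5′ to 3′ in the direction of the gene, with matches to a CHR (TTTGAA or TTCGAA) and to a CCAAT box (CCAAT), both searched on both strands, in capitals.
*Aurka*, chr2:172370521-172370820, minus strand: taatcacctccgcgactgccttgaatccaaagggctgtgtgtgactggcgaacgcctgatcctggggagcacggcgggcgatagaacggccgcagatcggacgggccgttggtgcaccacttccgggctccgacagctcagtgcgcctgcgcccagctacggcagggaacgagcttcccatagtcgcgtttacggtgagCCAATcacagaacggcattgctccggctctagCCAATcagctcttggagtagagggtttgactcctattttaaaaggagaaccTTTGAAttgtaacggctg
*Cdca8*, chr4:124936868-124937167, minus strand: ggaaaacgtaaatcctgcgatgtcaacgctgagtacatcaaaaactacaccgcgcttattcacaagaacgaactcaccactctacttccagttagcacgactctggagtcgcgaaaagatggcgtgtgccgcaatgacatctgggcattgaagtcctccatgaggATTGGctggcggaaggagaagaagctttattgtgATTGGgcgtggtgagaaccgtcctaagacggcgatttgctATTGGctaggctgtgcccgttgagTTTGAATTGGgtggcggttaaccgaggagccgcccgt
*Birc5*, chr11:117848987-117849286, plus strand: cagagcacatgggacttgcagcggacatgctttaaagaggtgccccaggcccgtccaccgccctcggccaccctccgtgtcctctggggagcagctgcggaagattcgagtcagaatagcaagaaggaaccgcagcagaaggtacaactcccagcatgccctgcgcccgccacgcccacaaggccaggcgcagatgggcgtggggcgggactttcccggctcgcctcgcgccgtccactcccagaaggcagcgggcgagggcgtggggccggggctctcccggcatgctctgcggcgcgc
*Tacc3*, chr5:33657878-33658177, plus strand: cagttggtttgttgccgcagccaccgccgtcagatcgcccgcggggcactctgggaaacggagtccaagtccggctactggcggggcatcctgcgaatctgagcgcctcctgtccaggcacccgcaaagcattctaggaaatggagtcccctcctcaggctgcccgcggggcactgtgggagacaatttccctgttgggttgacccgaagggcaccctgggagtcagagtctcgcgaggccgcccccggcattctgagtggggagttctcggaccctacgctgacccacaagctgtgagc
The windows of *Cdca8*, *Birc5* and *Tacc3* are set on the outer end of the annotated gene, whereas that of *Aurka* is set on a start inside the annotated gene and lies wholly within it. Counted from these starts, *Aurka* held 1 CHR, at position 33, and 2 CCAAT boxes, starting 51 and 19 bases before the start. *Cdca8* held 1 CHR, at position 14, and 4 CCAAT boxes, all on the opposite strand (read as ATTGG above), of which the last begins on the final base of the CHR. No match to these letters lay in the windows of *Birc5* and *Tacc3*, which says nothing about sites outside them or spelled otherwise. Of all 32851 promoter windows of this length, 19.2% held a CHR, 37.4% a CCAAT box and 7.52% both, so that the letters are common and a match is only a description. Letters of E2F sites (TTTGGCGC, TTTCGCGC or TTCCCGCC, both strands) were searched as well and lay in none of the 4 windows and in 2.96% of all windows.

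All 8 genes were lower in both knockdown lines than in any control line. Their log2 fold changes lay between -1.13 (*Tpx2*) and -0.91 (*Aurkb*), close to a halving. By limma without adjustment, at a p under 0.05, 8 of 8 were lower. Over all genes 7.61% were lower by that rule. The median log2 fold change of the 8 genes was -0.99, against 0.03 over all genes. None passed after Benjamini-Hochberg adjustment over all genes, where the share of lower genes was 0% and the members' adjusted p lay between 0.234 and 0.391. Both knockdown lines lay below all 3 control lines in 8 of 8 members and in 13.5% of all genes. These are levels in bulk RNA, in which fewer cells in G2 and mitosis and less of each mRNA per cell cannot be told apart. With an unmoderated equal-variance test 2 members were lower at the unadjusted threshold, where 4.19% of all genes were. Leaving out H5 gave 2 lower members (3.89% of all genes), and leaving out the untransduced line gave 2 (5.07%). When the scrambled line was dropped 6 members were lower (8% of all genes). *Tpx2* and *Bora* were lower in each of these settings. The median log2 fold change of the members was -0.60 with H4 left out and -1.40 with H3 left out.

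**Figure D1:**
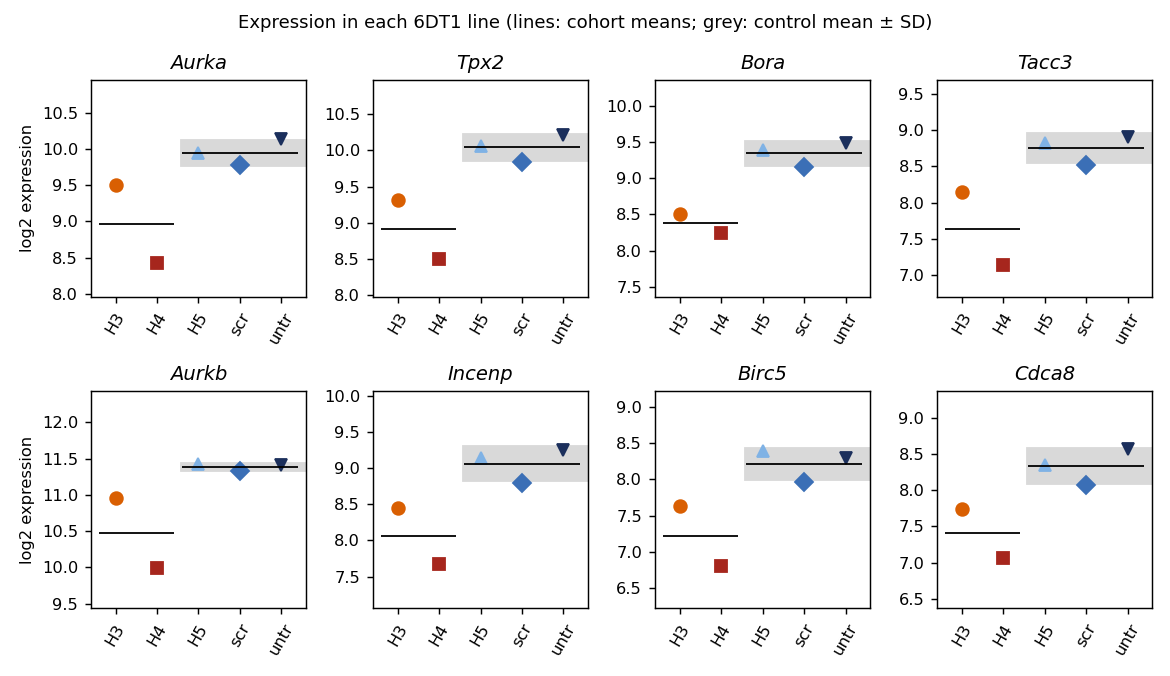
Log2 expression (vertical axis, 3 log2 units in every panel) of each member in H3, H4, H5, the scrambled line (scr) and untransduced cells (untr), with 1 point per array, horizontal lines at the cohort means and a grey band for the control mean ± SD (n = 3 lines). Both knockdown points sit under every control point in all 8 panels, with H4 under H3.

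*Aurka*, the kinase itself, had log2 values of 9.50 (H3) and 8.42 (H4) in the knockdown cohort, and of 9.94 (H5), 9.77 (scrambled) and 10.13 (untransduced) in the control cohort. H3 was nearer to the lowest control line, 0.27 below it, than to H4. Its log2 fold change was -0.98 (SE 0.34, 95% interval -1.90 to -0.07, adjusted p = 0.391 from limma). This was the widest interval among the members, and *Aurka* was not lower at the unadjusted threshold without H4 (unadjusted p = 0.0943 from limma), without any single control line, or with the unmoderated test.

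*Tpx2*, the activator that also nucleates microtubules around chromatin, had the lowest fold change of the 8 genes. It stood at 9.32 in H3 and 8.50 in H4, and its control values were 10.06 (H5), 9.84 (scrambled) and 10.22 (untransduced). On the linear scale H3 held 60.5% and H4 34.4% of the control mean. The log2 fold change was -1.13 (SE 0.27, 95% interval -1.86 to -0.41, adjusted p = 0.313 from limma).

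*Bora*, the cofactor through which Aurora A activates PLK1, was the member in which the knockdown lines resembled each other most. Its knockdown values were 8.50 (H3) and 8.25 (H4) and its control values 9.39 (H5), 9.15 (scrambled) and 9.48 (untransduced), a gap of 0.64 between H3 and the lowest control line. The log2 fold change was -0.96, and its standard error of 0.13 was the smallest of the 8 (adjusted p = 0.234 from limma). The deviation of H3 from the control mean was 76.4% of that of H4 in *Bora* and between 29.1% (*Aurka*) and 47.0% (*Tpx2*) in the other 7 members.

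*Tacc3*, the spindle substrate of Aurora A, reached the lowest share of its control level. H4, at 7.14, held 32.8% of the control mean and H3, at 8.14, held 65.5%. Control values were 8.82 (H5), 8.52 (scrambled) and 8.91 (untransduced), none of which reached down to H3. The log2 fold change was -1.11 (SE 0.33, adjusted p = 0.351 from limma).

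Within the passenger complex the kinase *Aurkb* was the gene with the tightest controls. Knockdown values were 10.96 (H3) and 10.00 (H4), and control values 11.43 (H5), 11.33 (scrambled) and 11.41 (untransduced). The controls thus spanned 0.10, against 0.33 to 0.50 in the other 7 members, and H3 lay 0.37 below the lowest of them. The log2 fold change was -0.91 (SE 0.29, 95% interval -1.69 to -0.13, adjusted p = 0.366 from limma). With H4 left out *Aurkb* had a log2 fold change of -0.43, the smallest decrease of the members, beside -0.72 in *Tpx2* and -0.84 in *Bora*. That fit takes the spread of the controls for H3 as well. RefSeq also lists a pseudogene of *Aurkb*, and whether the probe set reads it was not tested.

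The non-kinase subunits moved by similar amounts. *Incenp*, the scaffold, had 8.45 in H3 and 7.68 in H4, against 9.14, 8.79 and 9.25 in the H5, scrambled and untransduced lines, a log2 fold change of -0.998 (SE 0.28, adjusted p = 0.336 from limma). *Birc5*, which encodes survivin, a BIR-domain protein that reads a mitotic phosphate mark on the histone tail, had 7.63 in H3 and 6.80 in H4, against 8.39, 7.97 and 8.29 in the same order of control lines (log2 fold change -0.998, SE 0.29, adjusted p = 0.344 from limma). *Cdca8*, which encodes borealin, the subunit that binds nucleosomes, had 7.75 in H3 and 7.07 in H4, against 8.35, 8.07 and 8.58 in those lines (log2 fold change -0.92, SE 0.26, adjusted p = 0.339 from limma). No control value overlapped with a knockdown value in any of these subunits, and the 95% intervals of all 4 genes of the complex overlapped. Differences between the subunits were not tested.

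Among the lines the 8 genes kept nearly the same order. H4 was lower than H3 in 8 of 8 members, by a median of 0.82 (from 0.26 in *Bora* to 1.08 in *Aurka*), whereas 58.9% of all genes were lower in H4 than in H3. H4 below H3 and H3 below every control line was the order in 8 of 8 members and in 6.72% of all genes. With 1 array per hairpin the difference between H4 and H3 has no test. *Arid4b* mRNA was 7.35 in H4 and 6.88 in H3, while densitometry put the lower protein in H4. The H3 array had a median over all probe sets of 6.35 and an SD of 2.25, against medians of 6.24 to 6.25 and SDs of 2.29 to 2.30 on the other arrays. After the array medians were subtracted H4 was lower by a median of 0.71 in the members, and after quantile normalization of the deposited values by 0.88, in 8 of 8 genes each time. The share of all genes lower in H4 was 36.3% and 56.5% under these scalings. In *Bora* the difference between H4 and H3 was -0.14 and -0.35.

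The control lines were not alike either. The scrambled line was the lowest of the 3 in 8 of 8 members, and in 34.2% of all genes. Its deviation from the control mean ran from -0.27 in *Incenp* to -0.06 in *Aurkb*. The untransduced line was the highest control in 6 members, and H5 in the other 2, *Aurkb* and *Birc5*. H3 lay farther below the scrambled line than the control lines lay apart in *Tpx2*, *Bora* and *Aurkb*, and in the other members the control range was the wider of the 2 distances.

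**Figure D2:**
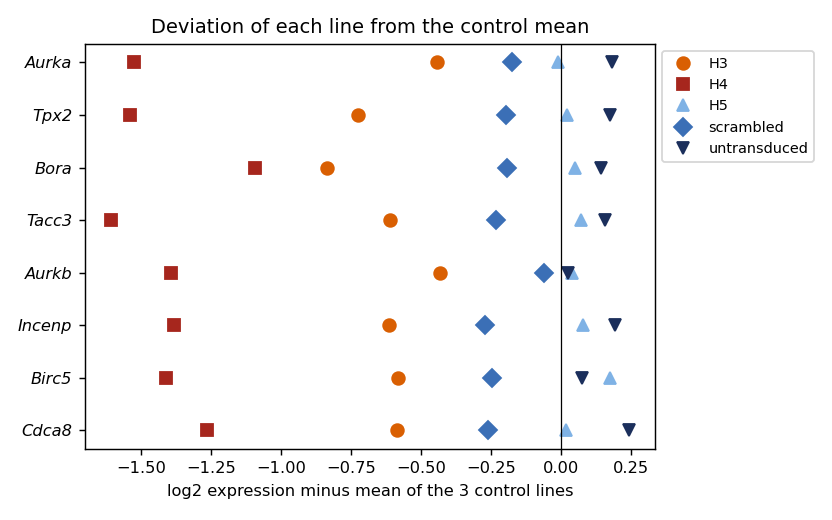
Log2 expression of each member (rows) in each line (points) minus the mean of the 3 control lines (horizontal axis). From left to right the order is H4, H3 and scrambled in every row, and in *Bora* H3 (-0.84) lies closest to H4 (-1.09).

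The paralogs of the members were examined next, from a list of genes of the same protein families. Of 11 measured paralogs none was lower or higher at the unadjusted threshold, where 7.61% of all genes were lower. Their median log2 fold change was -0.07. *Naip5*, *Naip6*, *Birc7* and *Tacc1* lay below the array medians in every line, between 3.85 and 5.91. Leaving out the lowest-expressed genes kept 7 of the 11. In genes near the floor of the arrays a decrease may not show, which limits the comparison with the members. *Aurkc*, the Aurora kinase of germ cells, has 4 probe sets, of which the 1 with the highest mean is given. That probe set had 6.90 in H3 and 6.65 in H4, against 6.71, 6.71 and 6.70 in the H5, scrambled and untransduced lines (log2 fold change 0.07, SE 0.09). Which transcripts it reads was not tested. *Tacc1* and *Tacc2* had log2 fold changes of 0.15 (SE 0.08) and -0.08 (SE 0.08). Among the BIR-domain relatives of survivin, *Xiap*, an inhibitor of caspases, had 7.69 in H3 and 8.55 in H4, against 8.78 (H5), 8.88 (scrambled) and 8.68 (untransduced), which gave a log2 fold change of -0.66 (SE 0.27, unadjusted p = 0.0609 from limma). In *Xiap* H3 was the low line and H4 lay near the controls, the opposite of the order in *Birc5*. The caspase and signalling regulators *Birc2* and *Birc3* had -0.21 and -0.15, *Birc6* -0.04, *Birc7* 0.05, and the *Naip* genes between -0.12 and -0.02. Without H4 *Xiap* and *Birc2* were lower, without H3 *Aurkc* was, and with limma's trend and robust option, with array weights or with the lowest-expressed genes left out *Xiap* was. The differences between members and paralogs were not tested.

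**Figure D3:**
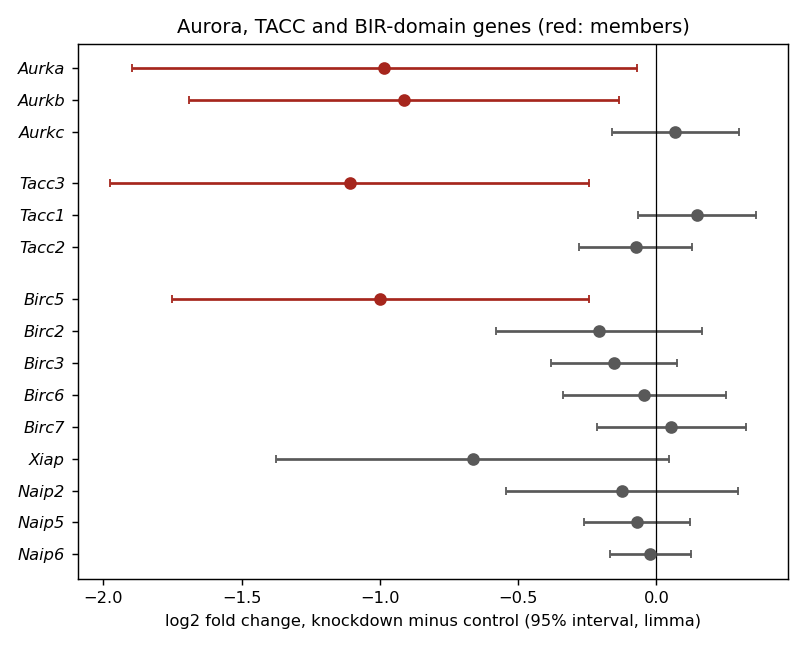
Log2 fold change of the knockdown over the control cohort (horizontal axis, points) with its 95% interval from limma for Aurora, TACC and BIR-domain genes (rows). The intervals of *Aurka*, *Aurkb*, *Tacc3* and *Birc5* lie below 0, and those of the 11 paralogs cross it.

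Of 17 measured partners of Aurora A on the spindle and at centrosomes, 10 were lower at the unadjusted threshold and 7 did not pass. No gene was higher, and the median log2 fold change was -0.52. Over all genes 7.61% were lower and the median was 0.03. *Hmmr*, a microtubule-binding protein that TPX2 partners with at spindle poles, had -1.29 (SE 0.38). *Ccna2*, the cyclin that primes BORA for Aurora A activation, had -1.17 (SE 0.32), and *Kif11*, a kinesin that TPX2 brings to the spindle, -1.06 (SE 0.28). The highest was *Numa1*, an organizer of spindle poles, at -0.11 (SE 0.09). Of the genes named for their link to a member after their values were seen, *Plk1*, which Aurora A and BORA activate, stood at 10.86 in H3 and 9.75 in H4, against 11.31, 11.14 and 11.50 in the H5, scrambled and untransduced lines (log2 fold change -1.01, SE 0.36). *Ckap5*, a microtubule polymerase that works with TACC3, had -0.62 (SE 0.14), and *Cltc*, the clathrin chain of the same bridge, -0.12 (SE 0.08). *Kpna2*, an importin that holds TPX2 inactive outside mitosis, had -0.90 (SE 0.20) in the probe set of highest mean among its 3. Which transcripts that probe set reads was not tested. The number of lower partners was 4 without H4, 6 without H5 and 5 without the untransduced line.

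Of 11 measured genes that recruit or control the passenger complex 9 were lower and none was higher, with a median of -0.96. The share of all genes that were lower was 7.61%. *Cdca2*, which targets a phosphatase to chromatin and opposes recruitment of the complex, had a log2 fold change of -1.17 (SE 0.29), *Kif20a*, the kinesin that carries the complex to the midzone, -1.17 (SE 0.31), and *Sgo1*, a shugoshin at the inner centromere, -1.15 (SE 0.20). *Rcc2*, a chromatin-bound partner of the complex, was the highest at -0.12 (SE 0.10). Leaving out H5 or the untransduced line made the count 5, where 3.89% and 5.07% of all genes were lower. Of 15 substrates of Aurora B 10 were lower and none was higher, with a median of -0.89, beside the same 7.61% of all genes. *Kif2c*, the microtubule depolymerase that Aurora B restrains at centromeres, had -1.77 (SE 0.11), with 8.48 in H3 and 8.44 in H4, against 10.23, 10.06 and 10.39 in the H5, scrambled and untransduced lines. The deviation of H3 from the control mean was 97.8% of that of H4 in *Kif2c*, against 76.4% in *Bora*. *Kif4* and *Kif23*, kinesins of chromosome arms and of the midzone, had -1.53 (SE 0.33) and -1.31 (SE 0.32). *Septin1* was the highest at 0.10 (SE 0.10). Without H4 the median log2 fold change of the substrates was -0.54.

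The enzymes that oppose the Aurora kinases made up the next list. Of 12 genes of the phosphatases PP1, PP2A and PP6 that act on Aurora kinases or their substrates, 2 were lower (*Ppp6r1* and *Ppp1ca*) and 10 did not pass. No gene was higher, and the median was -0.22. Of all genes 7.61% were lower. The lowest fold changes came mainly from H3. *Ppp1r7*, a regulator of PP1, had 9.36 in H3 and 10.68 in H4, against 10.75, 10.63 and 10.85 in the H5, scrambled and untransduced lines (log2 fold change -0.73, SE 0.40). *Ppp6c*, the catalytic subunit of the phosphatase that inactivates TPX2-bound Aurora A, had 9.31 in H3 and 10.13 in H4, against 10.25, 10.22 and 10.32 (log2 fold change -0.54, SE 0.25), and *Ppp2r5e* had -0.39 (SE 0.23). The highest was *Ppp6r2* at 0.02. H4 was below H3 in 2 of the 12 phosphatase genes, and in 58.9% of all genes. After the array medians were subtracted H4 was below H3 in 1 of the 12, and in 36.3% of all genes. The count of lower phosphatase genes was 1 with H5 or the untransduced line left out, where 3.89% and 5.07% of all genes were lower. Without H4 the median log2 fold change of the phosphatase genes was -0.29, against 0.04 over all genes. Without H3 it was -0.05, against 0.01 over all genes.

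Among 13 genes of the ubiquitin machinery that acts on Aurora kinases, survivin or BORA, 3 were lower, 1 was higher and 9 did not pass. The median was 0.08. Of all 19938 genes 1517 (7.61%) were lower and 866 higher. The lower genes were *Cdc20* (-0.93, SE 0.29), an activator of the anaphase-promoting complex that marks mitotic proteins for degradation, and *Ube2c* (-0.64, SE 0.20) and *Ube2s* (-0.39, SE 0.13), the ubiquitin-conjugating enzymes of that complex. Which transcripts the probe set of *Ube2s* reads was not tested. *Klhl13*, an adaptor of the CUL3 ligase that moves Aurora B off chromosomes, was higher at 0.22 (SE 0.08), and its relative *Klhl9* had 0.23 (SE 0.10). With H5 or the untransduced line left out none of the 3 was lower (3.89% and 5.07% of all genes were). Only *Cdc20* was lower without the scrambled line (8% of all genes). In the limma fit of all 19938 genes and 5 lines no gene in any of these lists passed after adjustment. Among the alternatives that kept all 5 lines, leaving out the lowest-expressed genes gave 3 lower and 1 higher of all genes after adjustment. The unmoderated test gave 2 higher genes, and the other alternatives on all lines gave none. Genes also passed in the fit without H4, which takes its spread from the controls and is not counted here. None of these was a member, and whether any belongs to the lists was not examined.

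**Figure D4:**
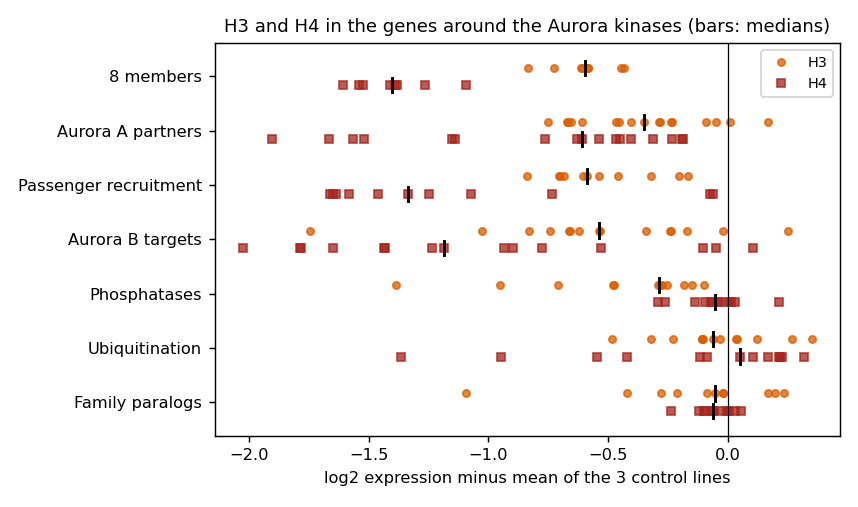
Log2 expression in H3 (circles) and H4 (squares) minus the mean of the 3 control lines (horizontal axis) for each gene of the members and of the 6 further lists (rows), with bars at the medians. In the members the medians are -0.60 in H3 and -1.40 in H4, and in the phosphatases -0.29 in H3 and -0.05 in H4.

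The genes whose profile over the 5 lines was most like that of the members were found by the root mean square distance between a gene's deviations from its own control mean and the mean deviation of the 8 members, which was -0.60 (H3), -1.40 (H4), 0.06 (H5), -0.20 (scrambled) and 0.15 (untransduced). The nearest non-member was *Knl1*, a kinetochore scaffold and Aurora B substrate, at a distance of 0.04 on the log2 scale. It had 8.84 in H3 and 8.07 in H4, against 9.55, 9.28 and 9.70 in the H5, scrambled and untransduced lines. *H1f5*, a linker histone, *Eme1*, a subunit of a DNA junction nuclease, *Cdca3*, a mitotic entry factor, and *Cenpn*, a centromere protein, followed at 0.04 to 0.06. The members themselves lay at 0.04 (*Incenp*) to 0.17 (*Bora*) from their own mean.

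Over all 19938 genes 1517 were lower and 866 were higher at the unadjusted threshold, and lower genes were 63.7% of these, 80.0% after the array medians were subtracted and 50.6% after quantile normalization. Leaving out H4 turned the balance, with 1986 lower and 4901 higher genes, of which lower genes were 28.8%. Of 10 epithelial markers *Krt8* and *Krt18* were high in every line (11.57 to 12.26), whereas *Epcam*, *Cdh1* and *Esrp1* lay below the array medians, between 5.12 and 6.16. None of the 10 epithelial or 10 stromal and endothelial markers passed the unadjusted threshold, and of 9 leukocyte markers *Ly6g* was lower (-0.54) and *Csf1r* higher (0.20). Among the leukocyte markers *Ptprc* lay between 4.98 and 5.15 in all lines, and *Cd14* between 8.10 and 8.69, above the array medians. Of the other leukocyte markers only *Cd3e* in H3 and *Itgam* in H4 exceeded the median of their array.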

How the data were processed

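Affymetrix Mouse Gene 1.0 ST arrays measured the RNA of 5 lines of 6DT1 cells. The authors normalized the arrays in Partek Genomics Suite, and the submitters' processing notes also name RMA; the deposited values are log2 expression per probe set, with versions not given in the sources used here. Base 2 was taken from RMA and was not checked against scanner files. Of 35556 probe sets, 21789 had 1 gene symbol in the platform annotation, 1621 had several and 12146 were unnamed here; gene IDs of 21698 were found in RefSeq (GRCm38.p6), which updated the symbols. Where a gene had more than 1 probe set (999 of 19938 genes), that with the highest mean was taken.

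The lines labelled with a low ARID4B level (n = 2) were compared with those labelled normal (n = 3) by limma 3.58.1 in R 4.3.3 over all genes with Benjamini-Hochberg adjustment, at thresholds of 0.05 with and without adjustment. limma's prior added 1.58 degrees of freedom to the 3 residual ones. The fit was tested on simulated data. With 1 array per line, the p-values rest on the variation among lines, part of which may be technical, and precision is limited by how few arrays there were. An exact permutation test of 2 lines against 3 cannot go below a one-sided p of 0.1.

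The members and gene lists were chosen with earlier results of these data known. In each list other than the cell markers the text names the 3 genes with the lowest and the gene with the highest log2 fold change, and any paralog; *Plk1*, *Ckap5*, *Cltc*, *Kpna2*, *Klhl13*, *Ppp6r1*, *Ppp1ca* and the cell markers given with values were named after their values were seen. *Nedd9*, *Ccnb1* and *Naip1* had no probe set with a single symbol. Alternatives were subtraction of array medians, quantile normalization, an unmoderated equal-variance test, limma with trend and robust options, leaving out the lowest-expressed genes (13292 kept), averaging probe sets, array weights, a covariate for puromycin selection, and removal of each line in turn. The scalings of the difference between H4 and H3 were chosen after seeing the data. Figures were drawn with matplotlib 3.10.9.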

Additional observations from a re-analysis of the deposited data

How the results depend on the processing

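Over the alternatives the log2 fold changes of the 8 members lay between -1.61 (*Tacc3* without H3) and -0.43 (*Aurkb* without H4). Because both knockdown lines lay below all control lines in the deposited values, only the rescalings of the arrays could have turned a sign or made the cohorts overlap, and neither subtraction of array medians nor quantile normalization did so in the members. Their adjusted p ran from 0.0575 (*Aurkb* without H4) to 0.718 over the alternatives, so that none passed after adjustment. With an unmoderated equal-variance test the number lower at the unadjusted threshold was 2 of the members, 5 of the Aurora A partners, 5 of the genes that recruit the passenger complex, 1 of the phosphatase genes, 0 of the ubiquitin genes and 835 of all genes. With puromycin selection as a covariate, which is the same fit as leaving out the untransduced line, the counts in that order were 2, 5, 5, 1, 0 and 1011. With array weights they were 905 for all genes, 1 for the phosphatases and 1 for the paralogs. Quantile normalization gave 1 phosphatase gene, leaving out the lowest-expressed genes gave 1 phosphatase and 1 paralog, and limma with trend and robust options gave 1 paralog. Leaving out each line in turn gave 2 to 8 lower members, 776 to 1986 lower and 408 to 4901 higher of all genes (both highest without H4), 4 to 12 Aurora A partners, 5 to 9 recruitment genes, 6 to 10 Aurora B substrates, 1 to 8 phosphatase genes, 0 to 4 ubiquitin genes and 0 to 2 paralogs. The cause of these changes was not tested. A fit with only 1 knockdown line takes its spread from the controls, although across genes H4 and H3 differed with an SD of 0.263 on the log2 scale, and pairs of control lines with 0.130 to 0.205.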

Other observations

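The genes next to the members on the chromosome were compared in the same way. RefSeq placed 18 protein-coding genes on either side of or overlapping the 8 members, all of which were measured. At the unadjusted threshold of limma 2 were lower, 1 was higher and 15 did not pass, with a median log2 fold change of 0.05. Of all 19938 genes 1517 (7.61%) were lower and 866 higher, with a median of 0.03. The neighbours that passed are named only as a description. The lowest value was that of *Dis3*, an exosome nuclease gene beside *Bora*, at -0.44 (SE 0.18), which did not pass. The lower genes were *Tmem129*, beside *Tacc3*, at -0.35 (SE 0.12), and *Fth1*, the ferritin heavy chain gene beside *Incenp*, at -0.17 (SE 0.05). *Borcs6*, beside *Aurkb*, was the higher gene at 0.26 (SE 0.08). *Cstf1*, an mRNA cleavage factor gene that overlaps *Aurka*, had 9.41 in H3 and 9.49 in H4, against 9.72, 9.60 and 10.09 in the H5, scrambled and untransduced lines (log2 fold change -0.35, SE 0.16). *Mzt1*, a component of the gamma-tubulin ring that overlaps *Bora*, had -0.04 (SE 0.07), and *9930104L06Rik*, beside *Cdca8*, had -0.02 (SE 0.10). Which transcripts the probe set of *Mzt1* reads was not tested.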
